A study of Mus musculus with 18 samples.

Results

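Open chromatin was compared between splenic B cells and T cells in the smallest captures of the study, libraries made from 100 nuclei that were cut out singly. The comparison took the 4 B libraries and the 4 T libraries of that size, 8 of the 18 libraries in all, by the cell type and cell number in the labels. The nuclei came from fresh frozen spleen of wild-type C57BL/6J mice. The sections were tagmented in place, stained with antibodies for B or T cells, and cut by laser capture microdissection. No treatment, age or time was given, and every group shared the strain, the genotype and the tissue. For the antibodies, the number of mice and any further sorting of the nuclei, the labels give nothing. The other 10 libraries, 5 of B and 5 of T, each came from tissue patches that together held about 1000 nuclei, and they are used below only as libraries in which regions chosen at 100 nuclei could be looked up. The labels call the libraries of a group technical replicates and tie none to a mouse, so p-values measure only the spread between these libraries.

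In ATAC-seq a transposase inserts adapters where DNA is not covered by nucleosomes, so reads collect at promoters and enhancers that are in use or ready for use. B cells carry a surface immunoglobulin with the signalling chains Cd79a and Cd79b, take up antigen and show it on MHC class II, and keep their identity through factors such as Pax5 and Ebf1. T cells signal through the CD3 chains and the adaptor Lat, and keep theirs through Tcf7, Lef1 and Bcl11b. In the spleen the cell types lie in neighbouring zones, the B cells in follicles and a marginal zone and the T cells around the central arteriole.

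The counts covered 27392 nuclear regions with a median length of 200 bases, after 4 mitochondrial regions were left out. A region was given to the protein-coding gene with the nearest end within 50 kb, which placed 23762 regions (86.7%) at 11343 genes. Such a gene is a neighbour, and the files do not show which gene a region acts on. At each of 7 marker genes looked up, a region with reads lay over the promoter. Cd79b and Cxcr5, markers used below, were not among the 7, and none of their regions lay over a listed promoter. The 250 bases before the gene start are shown for 5 of the 7. These were chosen after their values were seen, to show promoters at which the libraries of the cell types differed in presence of reads. The regions at the promoters not shown were read in 3 B and 2 T libraries (H2-Eb1) and in 1 and 3 (Themis), so the 5 are not the whole set. The bases are from RefSeq on GRCm38.p6, 5′ to 3′ on the strand of the gene, and capitals mark matches, on either strand, to the 6 motifs named after them.

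Cr2: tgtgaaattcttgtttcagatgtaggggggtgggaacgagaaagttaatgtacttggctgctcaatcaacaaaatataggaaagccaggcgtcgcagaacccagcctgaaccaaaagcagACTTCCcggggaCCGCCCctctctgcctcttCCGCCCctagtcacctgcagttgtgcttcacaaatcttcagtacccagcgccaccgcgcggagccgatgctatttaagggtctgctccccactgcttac
Pax5: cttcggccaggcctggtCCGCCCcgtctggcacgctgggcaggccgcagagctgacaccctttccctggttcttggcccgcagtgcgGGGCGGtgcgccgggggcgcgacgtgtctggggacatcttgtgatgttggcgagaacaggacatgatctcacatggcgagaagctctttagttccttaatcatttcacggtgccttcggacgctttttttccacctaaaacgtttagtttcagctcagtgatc
H2-Aa: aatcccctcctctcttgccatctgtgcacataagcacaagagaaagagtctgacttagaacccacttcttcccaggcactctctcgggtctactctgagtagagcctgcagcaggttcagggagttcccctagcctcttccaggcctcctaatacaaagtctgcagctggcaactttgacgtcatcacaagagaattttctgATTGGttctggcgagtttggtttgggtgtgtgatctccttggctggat
Txk: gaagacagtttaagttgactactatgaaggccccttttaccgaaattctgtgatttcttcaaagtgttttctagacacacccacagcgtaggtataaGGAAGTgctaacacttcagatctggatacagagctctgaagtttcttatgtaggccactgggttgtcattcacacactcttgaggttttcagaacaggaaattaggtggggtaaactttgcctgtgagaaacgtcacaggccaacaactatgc
Lat: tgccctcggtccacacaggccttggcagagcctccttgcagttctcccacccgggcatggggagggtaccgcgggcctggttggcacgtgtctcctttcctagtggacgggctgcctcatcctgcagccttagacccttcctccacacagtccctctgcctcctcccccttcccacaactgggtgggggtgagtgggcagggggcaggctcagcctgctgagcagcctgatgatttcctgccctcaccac

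These stretches lie at chr1:195176720-195176969 (Cr2), chr4:44710695-44710944 (Pax5), chr17:34287824-34288073 (H2-Aa), chr5:72752778-72753027 (Txk) and chr7:126369569-126369818 (Lat), all on the minus strand. The motifs searched were the ETS core GGAAGT, the GC box GGGCGG, the CCAAT box CCAAT, the octamer ATGCAAAT, the RUNX site TGTGGTT and the TCF and LEF site CTTTGAT. The Cr2 promoter held an ETS core and GC boxes, that of Pax5 GC boxes, that of H2-Aa a CCAAT box and that of Txk an ETS core, while none of the 6 was found in the stretch of Lat. The region over the Cr2 promoter was read in 4 B and 0 T libraries, and so was that over the Pax5 promoter. The region at H2-Aa was read in 4 B libraries and 1 T library, that at Txk in 0 and 2, and that at Lat in 0 and 3. A match describes the letters only.

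The 8 libraries did not give equal views of the genome. Nuclear counts were 386506, 400144, 397636 and 327099 in B libraries 1 to 4, and 692110, 715288, 411994 and 241786 in T libraries 1 to 4. Reads fell in 9130, 9351, 7610 and 10950 regions in B and in 10637, 10533, 3937 and 3296 in T. T libraries 3 and 4 therefore stood apart, with the fewest regions of the 8, while a region that was read there had a median of 87 and 62 reads. In the other 6 libraries that median was 22 to 52, and regions with a single read made up 2.14 to 3.42% of those read. The share of counts on mitochondrial DNA was 24.3 to 45.8% over the 8 libraries.

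**Figure D1:**
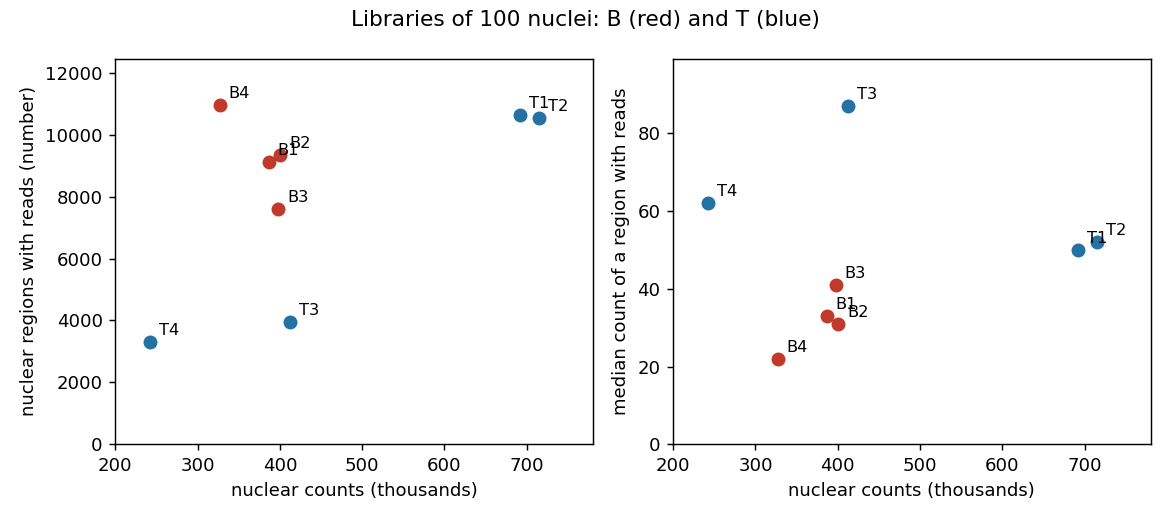
Each point is a library of 100 nuclei, B in red and T in blue, against its nuclear counts, in units of 1000: regions with reads (left) and the median count of a region with reads (right). T3 and T4 have 3937 and 3296 regions, below all other libraries, and the highest medians, 87 and 62.

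At equal depth B libraries were read in more regions on average, but the groups overlapped. Thinned to 241786 nuclear counts, B libraries had reads in 9130 ± 1367 regions and T libraries in 6933 ± 3865 (SD, n = 4 each, mean of 10 draws), a difference of 2197 (exact permutation p = 0.371, two-sided). Without T libraries 3 and 4 the difference was −1143, so its sign rested on them. Log10 nuclear counts differed by −0.0974, B minus T (two-sided exact permutation p = 0.314). In each of these tests the smallest p that the 70 splits allow is 0.0286, and adjusted over the 4 such tests both gave 0.495.

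The regions read in the libraries followed how open they were in patches of the same cell type. Regions were put into 5 equal classes by their pooled level in the 5 patch libraries of a cell type. In B, reads were found in 8.85% of the lowest class (6.95 to 11.6% over the 4 libraries) and in 74.9% of the highest (65.2 to 82.8%). In T the means were 7.38% and 57.7%, and the highest class ran from 82.9% and 79.8% in T libraries 1 and 2 to 37.2% and 30.9% in T libraries 3 and 4. T libraries 3 and 4 thus had no reads at most regions of the highest class.

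**Figure D2:**
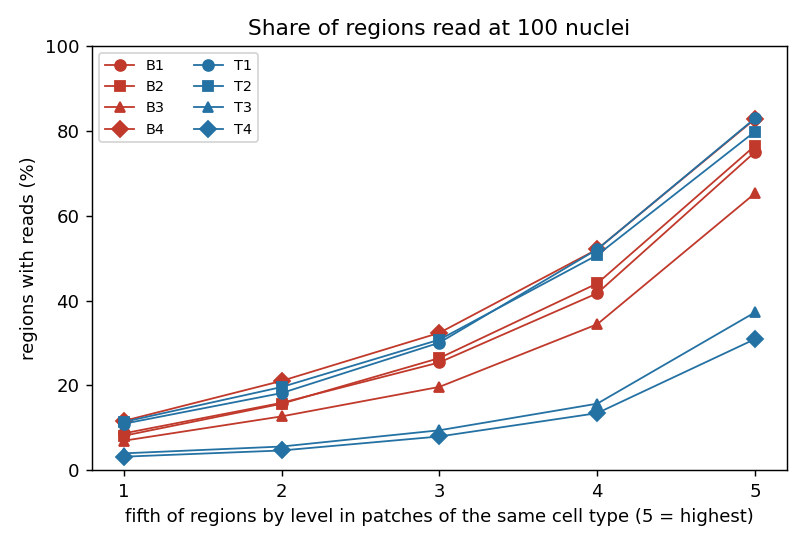
Share of regions with reads (%, vertical axis) in each library of 100 nuclei, for regions in 5 classes of rising pooled level in patches of the same cell type (horizontal axis). All 8 lines rise, and T3 and T4 end at 37.2% and 30.9%.

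The sets of regions that were read were not shown to be more alike within a cell type than between cell types. The Jaccard index, the share of regions read in both of 2 libraries among those read in either, averaged 0.348 among B libraries (6 pairs), 0.220 among T libraries (6 pairs) and 0.267 between B and T (16 pairs). Within minus between cell types came to 0.0172 (one-sided exact permutation p = 0.143, adjusted p = 0.495), and the value was below 0 without any 1 of the B libraries. Without T libraries 3 and 4 it was 0.0045 (one-sided exact permutation p = 0.4). Unequal numbers of regions limit the index. Thinned, T libraries 3 and 4 had reads in 3890 and 3296 regions, and T libraries 1 and 2 in 10315 and 10232. A low index among T libraries therefore does not show that they opened unlike regions. T libraries 1 and 2 shared most of all pairs, 0.395, while the highest index between cell types was 0.381, for B library 4 and T library 1. The part of nuclear counts within 1 kb of a gene end was 65.7% ± 0.890 for B and 65.5% ± 2.50 for T (n = 4 each, SD; two-sided exact permutation p = 0.857, adjusted p = 0.857).

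Regions read repeatedly in a single cell type were few, and most of them pointed the same way in the patches. Reads in 3 or 4 B libraries and in no T library were found at 639 regions (2.33% of all), and reads in 3 or 4 T libraries and in no B library at 180 (0.657%). With 1 library left out these counts ran from 202 to 1190 and from 19 to 293. The rule still asked for 3 libraries, so it became harder to meet for the cell type that lost a library and easier for the other. Without B library 1, 2 or 4 there were 257, 234 and 202 regions for B and 274, 249 and 293 for T, a shift that the rule itself favours. T libraries 1 and 2 were also set against 2 B libraries at a time, without thinning to equal depth. They had 692110 and 715288 nuclear counts, against 327099 to 400144 in the B libraries. Then 598 to 982 regions were read in both B libraries alone and 1146 to 1512 in both T libraries alone. Which cell type had more such regions thus rested on the libraries used. In the patch libraries, which had no part in the choice, the median log2 fold change of B over T was 0.97 for the regions read in B and −1.11 for those read in T, against 0.01 over all 25628 regions fitted there. The patch value was higher in B for 476 of 633 (75.2%) and higher in T for 146 of 180 (81.1%), where over all regions 50.4% were higher in B.

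Of the regions read in B, 64 were called higher in B in the patches and 1 higher in T. Of those read in T, 23 were called higher in T and 0 higher in B. Over all regions 2.1% were called there by edgeR's quasi-likelihood test with a Benjamini-Hochberg adjusted p under 0.05, 1.21% higher in B and 0.89% higher in T. The stricter choice of 4 against 0 left 125 regions for B (0.456%) and 11 for T (0.0402%), with patch medians of 1.01 and −1.22. The 368 regions read in all 8 libraries had a patch median of 0.08. The plot of presence against patch difference gives the medians for every combination of B and T libraries.

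**Figure D3:**
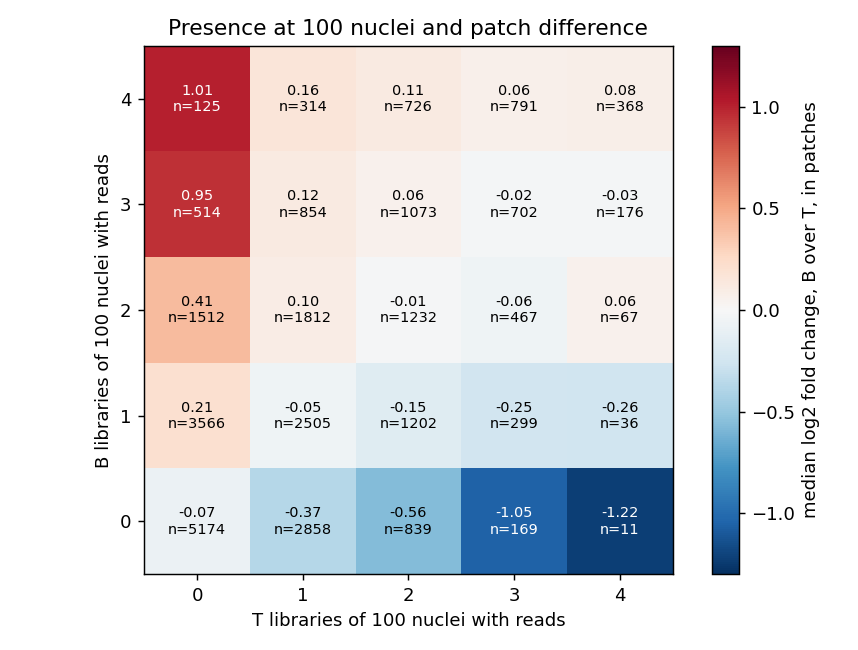
Median patch log2 fold change (B over T, colour and upper figure) of the regions read in a given number of B (vertical) and T (horizontal) libraries of 100 nuclei, with the number of regions n. Values run from 1.01 in the corner of 4 B and 0 T to −1.22 in that of 4 T and 0 B, and the 5174 regions read in none have −0.07.

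Fewer of the regions read in a single cell type lay near gene ends than of the regions read in all libraries. Of the regions read in 3 or 4 libraries of B or of T alone, 35.8% and 35.6% were within 1 kb of a gene end, against 82.9% of the regions read in all 8 and 45.2% of all nuclear regions. The regions read in none of the 8 were at 31.6%. Among promoters overlapped by such a region, the ETS core was found in 31.9% of 191 read in B, 24.5% of 49 read in T, 22.4% of 415 read in all 8 and 19.7% of the 32851 promoters of the table. The GC box stood in 58.6%, 55.1%, 78.1% and 32.7% of the same groups, and the CCAAT box in 34.0%, 34.7%, 50.1% and 33.8%. The octamer, the RUNX site and the TCF and LEF site were each in at most 6.12% of any group. These shares carry no test.

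Single regions did not separate the cell types in the count test. Of 5508 regions that passed the filter on low counts, edgeR's quasi-likelihood test called 0 at a Benjamini-Hochberg adjusted p of 0.05 (background 0%). At an unadjusted p under 0.05 there were 80 higher in B (1.45%) and 9 higher in T (0.163%). DESeq2 called 47, of which 41 were higher in B. Summed over the regions of each gene, 1 of 5532 genes was called (0.0181%), and 64 genes higher in B (1.16%) and 17 higher in T (0.307%) had an unadjusted p under 0.05. DESeq2 called 40 genes, of which 31 were higher in B. The excess in B at the unadjusted threshold rested on the libraries used. Without T libraries 3 and 4 there were 211 regions higher in B and 379 higher in T, and 189 and 141 genes. Without B library 4 there were 121 and 159 regions and 70 and 90 genes, and without B library 1, 151 and 153 regions. A region or gene that was not called is not shown to be alike in the cell types. In both sums and single regions, fewer nuclei with an open region and less opening per nucleus cannot be told apart.

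The called gene was Bcl11a, a transcription factor needed for the development of B cells. Its 9 regions held 138, 133, 308 and 75 reads in B libraries 1 to 4 and 0 in each T library. All 4 B libraries thus lay above all T libraries. Pooled, the level was 433 CPM in B, where CPM scales counts to a common nuclear total, and at least 297-fold higher than the level that 3 reads over the T group would give (edgeR quasi-likelihood, Benjamini-Hochberg adjusted p = 0.0115). Such bounds cover counting error only, and reads without molecular identifiers are not independent molecules. Of these regions 2 were read in all 4 B libraries. With 19, 36, 30 and 18 reads the former was inside the gene (chr11:24077462-24077722), 0.898 kb from an end, and the latter, with 47, 28, 78 and 2, was 26.7 kb outside (chr11:24200288-24200724). The patches put the gene at a log2 fold change of 2.08 ± 0.29 (SE; adjusted p = 2.18e-04). The call at 100 nuclei was lost without B library 1, 2 or 3 (adjusted p = 0.113, 0.0909 and 0.968) or T library 1 or 2 (0.0744 and 0.0523), and with regions limited to 10 kb of a gene.

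The B cell markers Cr2, Cd79b, H2-Eb1 and Cxcr5 had reads in more B than T libraries, though the groups overlapped at H2-Eb1 and Cxcr5. T libraries 3 and 4 had reads in only 3937 and 3296 regions, so this order alone does not set marker genes apart. Over all genes, 11.2% had reads in a B library and in no T library, and 7.48% the reverse. Cr2, which encodes the complement receptor CD21 of mature B cells, had 1, 31, 40 and 50 reads in B and 0 in T. All lay in the promoter region shown above (chr1:195176439-195176934). The pooled B level was 55.5-fold that of 3 reads over the T group, a bound that covers counting error only. Regions read in T libraries had medians of 50 to 87 reads, so that bound is no floor for the fold at Cr2. The groups did not overlap there, though B library 1 rested on a single read and the gene did not reach the filter of the test. Cd79b, a signalling chain of the B cell receptor, had 77, 93, 132 and 44 reads in B and 0, 43, 0 and 0 in T. The fitted log2 fold change was 3.73 ± 2.27 (SE), and it did not pass (edgeR adjusted p = 0.9997). H2-Eb1, an MHC class II chain, had 57, 237, 211 and 130 reads in B and 31, 130, 0 and 15 in T, and its groups overlapped. Cxcr5, the chemokine receptor that guides B cells into follicles, had 52, 191, 89 and 60 reads in B and 153, 166, 0 and 29 in T. Its region at the gene end was read in 4 B and 0 T libraries (12, 126, 25 and 32 reads), whereas a region 6.67 kb outside held 152 and 29 reads in T libraries 1 and 4. The patches gave 1.89 ± 0.47 at the former (adjusted p = 0.0364) and −1.27 ± 0.35 at the latter (adjusted p = 0.0637), so its sum joined regions with values of opposite sign.

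The T cell markers Txk and Lat differed in which T libraries held their reads. Txk, a Tec kinase of T cells, had 0 reads in every B library and 148, 209, 0 and 0 in T. These reads lay in a region at the gene end (chr5:72752673-72753004). The pooled T level was 87.3-fold that of 3 reads over the B group, a bound that covers counting error only. Regions read in B libraries had medians of 22 to 41 reads, so that bound is no floor for the fold. Reads at Lat, the adaptor of T cell receptor signalling, were 0, 0, 0 and 22 in B and 29, 46, 0 and 107 in T. Its promoter region had reads in 0 B and 3 T libraries, and the 22 reads of B library 4 lay in the neighbouring region. In the patches Txk was at −1.90 ± 0.46 (adjusted p = 0.0199) and Lat at −0.55 ± 0.41 (adjusted p = 0.650).

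The B cell identity list, 26 genes with regions at 24, held more of the counts in B. Its regions took 0.345, 0.660, 0.502 and 0.367% of nuclear counts in B libraries 1 to 4 and 0.234, 0.147, 0.154 and 0.0889% in T libraries 1 to 4. All B values were above all T values. In pooled CPM 21 of the 24 genes were higher in B and 3 higher in T, and without T libraries 3 and 4 these were 20 and 4, where over all genes 52.3% were higher in B. The median fitted log2 fold change of its 19 tested genes was 1.86, beside 0.30 over all tested genes, and 0 passed. Library size alone as scaling moved the latter median to 0.14.

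At 8 of the 24 genes every B library was above every T library, where that held for 1.9% of all genes: Cd79b, Cr2, Pax5, Bank1, Tnfrsf13c, Ebf1, Blnk and Cd37. The list had 99 regions at its 24 genes, while all 11343 genes had 23762, and 849 of all genes were unread in the 8 libraries. Shares over all genes, here and below, are therefore not those of genes with as many regions. Pax5, the factor that keeps B cells committed, had 142, 558, 397 and 64 reads in B and 114, 52, 0 and 26 in T. In CPM its groups lay apart, with a log2 fold change of 3.19 ± 0.95 (SE; edgeR unadjusted p = 8.7e-04, adjusted p = 0.615). The T reads lay mostly in a region inside the gene 5.97 kb from its end (chr4:44704409-44704724), which had 114, 24, 0 and 26 reads in T and 46, 318, 148 and 29 in B.

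Of further genes of B cell function, Tnfrsf13c, Bank1 and Ebf1 had every B library above every T library, while Ms4a1 and Cd79a did not. Tnfrsf13c, the receptor for the survival factor BAFF, had 45, 14, 170 and 115 reads in B and 10, 20, 0 and 0 in T. Bank1, a scaffold protein of B cell signalling, had 101, 104, 232 and 98 in B and 66, 25, 0 and 0 in T. At Ebf1, a factor of the B lineage, the counts were 60, 24, 22 and 57 in B and 0, 21, 0 and 0 in T. None of the 3 passed (edgeR adjusted p = 0.9997 each), and in the patches they were 2.28 ± 0.36, 2.37 ± 0.30 and 2.78 ± 0.42 higher in B. Ms4a1, which encodes CD20, was read in 3 B and 2 T libraries, with 43, 153, 0 and 78 against 0, 96, 148 and 0 reads, and its groups overlapped although the patches gave 3.68 ± 0.43. Cd79a, the partner chain of Cd79b, had 4, 82, 0 and 0 reads in B and 5, 21, 0 and 0 in T.

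**Figure D4:**
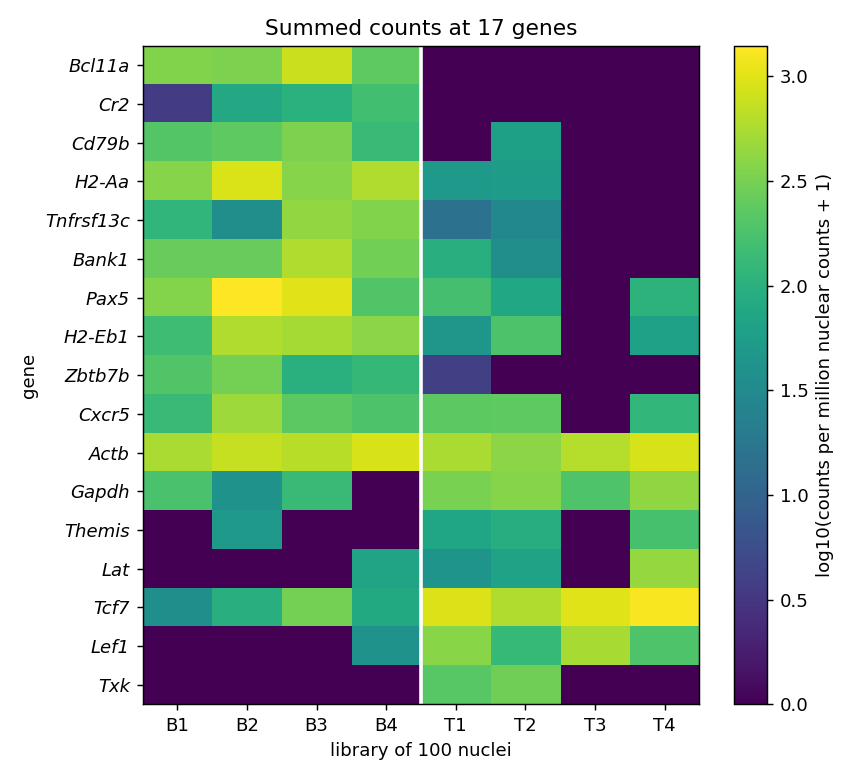
Summed counts at 17 genes (rows) in the 8 libraries of 100 nuclei (columns), as log10 of CPM plus 1, from nuclear counts, so that dark purple is 0 reads. Bcl11a and Cr2 have 0 reads in all T libraries and Txk in all B libraries, while Actb is read in all 8.

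The T cell identity list, 29 genes with regions at 28, was the reverse. Its regions took 0.224, 0.127, 0.220 and 0.157% of nuclear counts in B and 0.504, 0.424, 0.475 and 0.622% in T. The lowest T library was above the highest B library, and T libraries 3 and 4 were no exception to this. In the pool 26 of 28 genes were higher in T (47.7% of all genes) and 2, Ets1 and Ubash3a, higher in B (52.3% of all genes). Without T libraries 3 and 4 these counts were 24 and 4. The median fitted log2 fold change of 17 tested genes was −1.19, beside 0.30 over all tested genes, and 0 passed the test. T libraries 3 and 4 reached this share with 21 and 24 of the list's 120 regions read, against 62 and 61 in T libraries 1 and 2.

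Tcf7 and Lef1, which encode transcription factors of T cells, were the list members at which every T library was above every B library, where that held for 0.538% of all genes. Tcf7 had 14, 37, 122 and 26 reads in B and 650, 423, 402 and 316 in T. Its log2 fold change was −2.58 ± 0.85 (SE; edgeR adjusted p = 0.986). Across its 9 regions the reads of T libraries 3 and 4 came chiefly from 2 of them, inside the gene 7.73 kb from its end (chr11:52275521-52275654; 150 and 128 reads) and 16.1 kb outside (chr11:52299516-52299983; 206 and 184 reads). Lef1 had 0, 0, 0 and 13 reads in B and 264, 90, 221 and 46 in T. The 13 reads lay in a region of the gene that held no T reads. With T libraries 3 and 4 left out, 13 of the 28 genes had every T library above every B library (6.58% of all genes) and 1 the reverse, and 10 of the 24 B cell identity genes had every B library above (3.54% of all genes).

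Several T cell identity genes had no read in any B library. Reads were found in at least 1 T library and in no B library at 7 of the 28 genes (7.48% of all genes): Txk, Bcl11b, Cd3g, Cd6, Cd27, Camk4 and Thy1. Bcl11b, a factor of T cell commitment, had 56, 12, 0 and 0 reads in T, and Thy1, a surface glycoprotein of T cells, 34, 101, 191 and 0. Of B cell identity genes, Cr2 was the 1 of 24 with reads in B and in no T library (11.2% of all genes). The promoter of Themis, a regulator of T cell selection, had 0, 20, 0 and 0 reads in B and 50, 65, 0 and 41 in T. Prkcq, the protein kinase C of the T cell synapse, had 39, 0, 1 and 10 reads in B and 443, 121, 0 and 102 in T. T library 3 had 0 reads at each of Txk, Bcl11b, Themis and Prkcq. Cd3e and Cd3d, chains of the CD3 complex, had 0, 0, 0 and 10 and 33, 2, 15 and 25 reads in B, and 0, 128, 131 and 0 and 167, 75, 0 and 0 in T. Lck, the Src kinase of T cells, had 88, 99, 17 and 23 in B and 217, 300, 69 and 0 in T, and Satb1, a chromatin organiser, 34, 70, 119 and 96 against 188, 363, 0 and 261. The groups overlapped at each of these 4 genes.

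**Figure D5:**
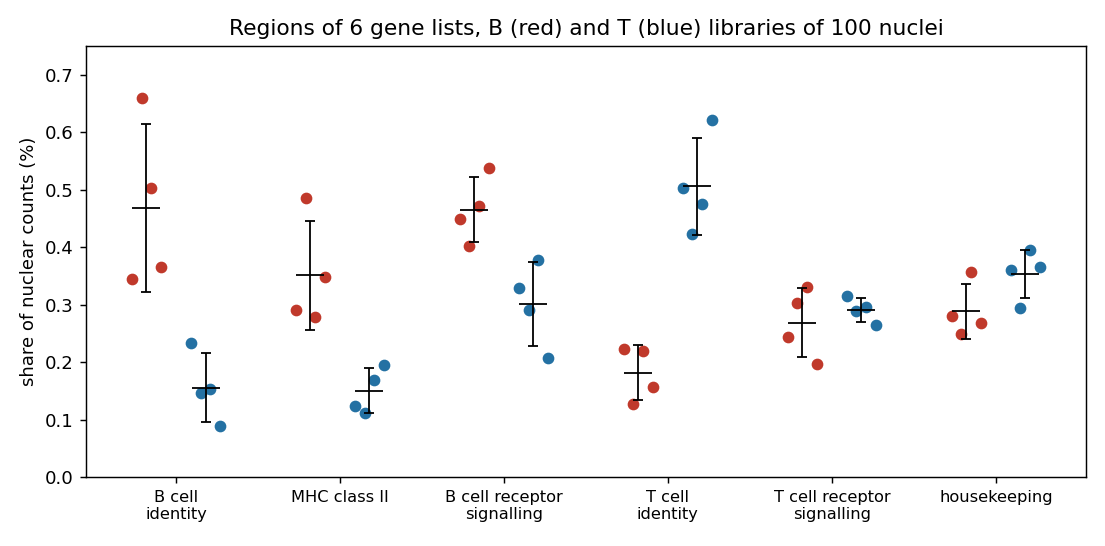
Share of nuclear counts (%, vertical axis) in the regions of 6 gene lists, with a point for each library of 100 nuclei (B red, T blue) and bars for mean ± SD (n = 4). B and T points do not overlap for B cell identity, MHC class II, B cell receptor signalling and T cell identity, and they do for T cell receptor signalling and housekeeping genes.

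The MHC class II list holds genes whose products show antigen to helper T cells. In the pool 11 of 11 genes were higher in B (52.3% of all genes), also without T libraries 3 and 4. Their share was 0.352% ± 0.0948 for B and 0.151% ± 0.0391 for T (n = 4 each, SD), with every B value above all T values. H2-Aa had 145, 369, 147 and 193 reads in B and 34, 38, 0 and 0 in T. Its log2 fold change was 4.33 ± 1.26 (SE; edgeR unadjusted p = 6.46e-04, adjusted p = 0.595), and DESeq2 called it (adjusted p = 0.0470). H2-Ob, a subunit that modulates peptide loading, was the other gene with groups apart, at 36, 115, 89 and 42 against 9, 20, 0 and 0 reads, which makes 2 of 11 beside 1.9% of all genes. Cd74, the invariant chain, had 134, 255, 36 and 114 in B and 58, 141, 0 and 0 in T. H2-DMa, which edits the bound peptides, had groups that overlapped, with 383, 274, 230 and 142 against 373, 249, 193 and 267 reads. These genes lie close together on chromosome 17, apart from Cd74 and Ciita, so a region can belong to a neighbour of the gene it was given to.

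Genes of B cell receptor signalling were higher in B in the pool at 15 of 18 (52.3% of all genes). This was 13 of 18 without T libraries 3 and 4. The list took 0.466% ± 0.0562 against 0.301% ± 0.0725 of counts (SD, n = 4 each). Lyn, the Src kinase that starts the signal, had 125, 119, 137 and 70 reads in B and 90, 1, 0 and 0 in T. Syk, the kinase that carries it on, had 207, 160, 75 and 137 in B and 118, 120, 76 and 0 in T. At Cd180, a Toll-like receptor homologue, the counts were 25, 48, 51 and 48 in B and 0, 25, 0 and 0 in T. At these 3 of the 18 genes every B library was above every T library in CPM, beside 1.9% of all genes, and none of the 16 tested genes of the list passed. Vav2, a guanine nucleotide exchange factor, had 159, 279, 234 and 198 reads in B and 20, 133, 296 and 6 in T. Pik3ap1, an adaptor for PI3 kinase, had 52, 9, 155 and 40 against 29, 8, 0 and 0, and the groups overlapped at both. Genes of T cell receptor signalling showed no such order, with 6 of 16 higher in B and the other 10 in T, and shares of 0.197 to 0.331% in B and 0.265 to 0.316% in T. Cd226, an activating receptor on T and NK cells, had 0, 0, 39 and 0 reads in B and 115, 59, 181 and 0 in T. In pooled CPM the ubiquitin ligase Cblb and the phosphatase Ptprc (CD45) were at 537 and 297 in B and 284 and 147 in T, and the phosphatase Ptpn22 at 105 in B and 328 in T. None of these passed.

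Genes that sort T cells into helper and cytotoxic lineages gave mixed values. Cd8a and Cd8b1, the chains of the CD8 coreceptor, had 0 reads in B and 37, 16, 0 and 0 and 58, 90, 0 and 0 in T. Prf1, which encodes perforin, had 0, 0, 0 and 19 reads in B and 114, 145, 167 and 0 in T. Zbtb7b, the factor of the helper lineage, was read the other way, with 76, 123, 39 and 40 reads in B and 2, 0, 0 and 0 in T. edgeR gave it an adjusted p of 0.9997 and DESeq2 0.00991, and the patches put the gene at 0.01 ± 0.28. Runx3, the factor of the cytotoxic lineage, had 130, 143, 138 and 218 reads in B and 123, 201, 150 and 29 in T. Its pooled level was 416 CPM in B and 244 in T, opposite in sign to the patches (−1.25 ± 0.23, adjusted p = 0.00242), and at 100 nuclei it did not pass (edgeR adjusted p = 0.9997). Ccr7, a homing receptor of T cells, was at 415 CPM in B and 764 in T. Cd4 had no region. Marginal zone genes were higher in B at 9 of 12 in the pool (52.3% of all genes). The shares of this list overlapped (0.123 to 0.243% in B and 0.153 to 0.234% in T). Of its genes with the smallest p, Dtx1, Mzb1 and Cd9 were at 574, 184 and 210 CPM in the B pool and 362, 83.0 and 107 in the T pool, and S1pr1 at 321 and 549. None passed, and the patches called the first 3 higher in B (edgeR adjusted p = 0.00106, 0.0276 and 0.0106).

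Regions with the most reads among those found in all 4 libraries of a single cell type were a mixture of sites that were and were not called in the patches. On the B side, the region with the highest pooled level, at an end of Pitrm1, had 91, 236, 62 and 66 reads in B and 0 in T (patch 0.74 ± 0.32, adjusted p = 0.322). A region at an end of Fam43a had 47, 28, 150 and 33 (patch 1.16 ± 0.29, adjusted p = 0.0383). A region inside Ets1, a transcription factor of lymphocytes, had 37, 79, 136 and 11 reads in B and 0 in T (chr9:32652046-32652602, 15.8 kb from an end). The patches gave 2.36 ± 0.40 there (adjusted p = 0.00441), while Ets1 as a whole was read in all 8 libraries. A region inside Irf4, a factor of B cell activation, had 54, 27, 210 and 50 reads (chr13:30761384-30761681; patch 1.96 ± 0.64, adjusted p = 0.133). Regions 11.03 kb from Grhpr and 12.9 kb from Gad1 had 6 to 173 and 1 to 164 reads per B library, and patch values of 2.79 ± 0.51 and 3.58 ± 0.80 (adjusted p = 0.00669 and 0.0205). The regions at Atp6ap1, Afap1, Colgalt1 and Lipt2 were read in the 4 B libraries too, with patch values of 0.28, −0.37, −0.28 and −0.14, none of which passed.

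On the T side, a region inside Als2cl had 168, 182, 76 and 57 reads in T and 0 in B (chr9:110896638-110897035). Its patch value was −4.07 ± 0.77 (adjusted p = 0.00754). A region 26.6 kb from Trim33 had 47, 44, 116 and 77 reads (chr3:103385335-103385802, patch −2.50 ± 0.55, adjusted p = 0.0195). Of all 11 regions read in 4 T and 0 B libraries, 3 were called higher in T in the patches. Regions at predicted genes were left out of those named. Presence without a call in the patches occurred here as well, which does not show that the region is alike there. The regions at Crtc1 and Plcb2 were read in 4 T and 0 B libraries, with patch values of 0.20 and 0.07. Those at Wipf1, Jade3, Onecut3 and Nsmce1 had −1.22, −0.55, −0.24 and −1.11, none of which passed. Regions inside Spn, which encodes CD43, and Lef1 had patch values of −2.51 ± 0.90 and −2.62 ± 0.78 that did not pass (adjusted p = 0.179 and 0.0891).

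By gene, reads in all 4 B and no T library were found at 62 of the 11343 genes, and reads in all 4 T and no B library at 8. T libraries 3 and 4 had reads in only 3937 and 3296 regions, which made the rule for T harder to meet. The counts of 62 and 8 therefore cannot be set against each other. In the patches 48 of the 62 were higher in B (77.4%; 48.7% of all genes), 19 of them called, and 6 of the 8 were higher in T (75%; 51.3% of all genes), 2 of them called. Over all genes 4.2% were called there, 2.36% higher in B and 1.84% higher in T. Genes of the 62, named after their values were seen, included Ccr6, a chemokine receptor of B cells (129, 36, 79 and 10 reads; patch 1.85 ± 0.35, adjusted p = 0.00293), and Bhlhe41, a transcription factor (57, 135, 6 and 63 reads; patch 1.62 ± 0.37, adjusted p = 0.0126). The 2 of the 8 called in the patches were Als2cl and Igsf23. Itgb2, the shared chain of leukocyte integrins, was read in 4 T libraries (22, 141, 71 and 87 reads) and 0 B libraries, with a patch value of −0.58 ± 0.35 (adjusted p = 0.523).

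Genes used in every cell gave a measure of how uneven single loci were. Actb, the cytoskeletal actin, had 216, 295, 252 and 293 reads in B and 383, 282, 254 and 218 in T, and its groups overlapped. Gapdh, a glycolytic enzyme, had 67, 16, 54 and 0 in B and 225, 270, 78 and 100 in T, so every T library was above every B library in CPM (log2 fold change −1.70 ± 1.62 SE, edgeR adjusted p = 0.9997; patch 0.16 ± 0.25). Eef1a1, an elongation factor, and Ppia, a prolyl isomerase, were at 267 and 141 CPM in the B pool and 590 and 452 in the T pool. Housekeeping genes were higher in B in the pool at 7 of 13 (53.8%), near the 52.3% of all genes. Their shares were 0.249 to 0.358% in B and 0.295 to 0.395% in T.

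Markers of other cell types were measured beside these groups. The dendritic cell list took 0.0737 to 0.115% of counts in B and 0.0120 to 0.0554% in T. Of its 7 genes with regions, Irf8, Tcf4 and Flt3 among them, 5 were higher in B in the pool (52.3% of all genes). The defining Itgax, Zbtb46 and Xcr1 had no region. Irf8, which B cells also use, had 188, 129, 126 and 145 reads in B and 74, 165, 115 and 6 in T. Sirpa, another gene of the list, had 53, 71, 54 and 15 reads in B and 9, 0, 15 and 0 in T, and its groups did not overlap. Every B library was above every T library at 2 of the 7 genes, beside 1.9% of all genes. The macrophage and monocyte list took 0.0145 to 0.0307% in B and 0 to 0.0234% in T. Of its 4 genes past 3 reads in a pool 1 was higher in B, Adgre1, with 90, 45, 100 and 26 reads in B and 0, 62, 0 and 0 in T, while Csf1r had 3 reads in the 8 libraries and Itgam was at 34.4 CPM in both pools. The NK cell list took 0.00489 to 0.0489% in B and 0.0110 to 0.0960% in T, mostly at Klrb1c, and no neutrophil gene had a region. Erythroid and megakaryocyte genes took 0.00397 to 0.0143% in B and 0 to 0.0444% in T, and the 4 with regions, Klf1 and Tal1 among them, were higher in T in the pool. The stroma and endothelium list took 0.0165 to 0.0430% in B and 0.0247 to 0.0525% in T. Of its 3 genes with regions, Cdh5, a cadherin of endothelium, had 73, 40, 52 and 40 reads in B and 0, 49, 0 and 0 in T (patch 2.35 ± 0.63). The groups did not overlap there, with B above T at 1 of the 3 genes, beside 1.9% of all genes. Pecam1 had 68, 26, 119 and 86 reads in B against 264, 128, 107 and 127 in T. The part of such cells in the B and T values was not tested.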

How the data were processed

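Chromatin accessibility was measured by paired-end ATAC-seq in 8 libraries of 100 nuclei, 4 of B and 4 of T cells. The authors deposited raw whole-number counts per region, whose columns carry the sample names of the labels. The submitters' processing notes name MACS2 2.2.7.1, SAMtools 1.14, Bowtie2 2.4.5, R 4.1.0, Trimmomatic 0.36, deepTools 3.5.2, bcl2fastq 2.20 and Picard, with genome build mm10. How regions were called, reads shifted and duplicates handled was not stated there. Undetected duplicates would raise the counts of a region, and counts are therefore not independent molecules.

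Mitochondrial rows were left out before library sizes were summed. Coordinates of regions are as deposited, with a start that may count from 0 or from 1. Gene ends and promoters came from RefSeq tables of GRCm38.p6. The gene table carries no strand and the promoter table is not complete, so the nearest gene end replaced the gene start. Of the 7 marker genes looked up by symbol, all 7 had a promoter entry over a region with reads. The markers Cd79b and Cxcr5 were not among the 7, and no promoter entry lay over a region of either.

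Regions and gene sums past filterByExpr (minimum count 10) were tested with edgeR 4.0.16 in R 4.3.3: TMM factors, the quasi-likelihood test and Benjamini-Hochberg adjustment at 0.05. Standard errors are the log2 fold change over the root of F. Patch values come from the same fit on the 10 patch libraries alone. CPM are counts scaled by the nuclear total, and a group at 0 was set to 3 reads over the group for bounds. Exact permutation tests compared values of whole libraries, with adjustment over the 4 made. Alternatives were DESeq2 1.42.0, other scalings, filters, read minimums and gene distances, the replicate number as a block and each library left out. Leaving out T libraries 3 and 4 together was chosen after seeing the data.

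The comparison, the gene lists, the tests and the rule for named genes were chosen with earlier results of these data known. The rule named the 6 markers, called genes, the 4 genes with the smallest p per list and a set of known markers. It also named 10 regions per direction among those read in 4 libraries of a cell type and none of the other. Fewer libraries were allowed where under 10 were found. The regions with the largest pooled level were taken, and those at predicted genes (Gm, Rik, LOC) were left out. Other list members were named after their values were seen. Of the genes and regions that the rule named, 1 gene is not reported here.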

Additional observations from a re-analysis of the deposited data

Results flagged for a closer look

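Of 68 groups of 4 libraries checked for a library far from the others, 9 had one. Chance gives about 1 in 20 for continuous values, but 5 of the 9 are groups with 3 libraries at 0, which meet the criterion whatever the remaining count is, so that rate does not hold for them. At Lef1, B library 4 had 39.7 CPM and the other B libraries 0. At Themis, B library 2 had 50.0 and the others 0, and at Lat, B library 4 had 67.3 and the others 0. At Lat, T library 4 had 442.5 and the other T libraries 0 to 64.3. At Cd79b, T library 2 had 60.1 and at Zbtb7b, T library 1 had 2.89, with the other T libraries at 0. At Bank1, B library 3 had 583 and the other B libraries 260 to 300. Marginal zone genes took 0.234% of nuclear counts in T library 4 and 0.153 to 0.164% in the other T libraries. Dendritic cell genes took 0.0737% in B library 4 and 0.110 to 0.115% in the other B libraries. Outside the nuclear regions, mitochondrial DNA took 35.5% of all counts of the 8 libraries.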

How the results depend on the processing

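The replicate numbers did not pair the libraries (correlations of same-numbered deviations from −7.80e-04 to 0.0218 over genes, and 2 of 4 libraries correlated best with their own number), and with a replicate block 0 genes were called, against 1 without it. The call of Bcl11a was also lost at a minimum count of 30 and with genes assigned within 10 kb or 2 kb (0 genes each), and DESeq2 called 40 genes and 47 regions. Leaving out 1 library gave 0 to 1 gene calls and 0 region calls. Library size alone as scaling gave 61 genes higher in B and 33 higher in T at an unadjusted p under 0.05, against 64 and 17 with TMM, and 73 and 19 regions against 80 and 9. With 1 library left out these were 70 to 408 and 15 to 90 genes, and 121 to 716 and 12 to 159 regions, with more higher in T without B library 4 (genes and regions) or B library 1 (regions). Without T libraries 3 and 4 they were 189 and 141 genes and 211 and 379 regions.

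The difference in log10 nuclear counts was −0.194 to −0.0369 with 1 library left out, and it had an exact permutation p of 0.0286 only without T library 4. The difference in regions read, 985 to 3324 with 1 library left out, was −1143 without T libraries 3 and 4. The Jaccard difference ran from −0.00583 to 0.0536 with 1 library left out, being −0.00382, −0.00583, −0.00152 and −0.00504 without B library 1, 2, 3 or 4, and with Pearson's r in its place it was 0.0244 (one-sided exact permutation p = 0.0286). The share near gene ends differed by −0.858 to 0.909 points with 1 library left out, −0.178 without B library 1 and −0.858 without T library 4, by −1.69 without T libraries 3 and 4, and by −1.21 as a share of regions. Regions read in B alone numbered 202 to 321 without any 1 of the B libraries and 1115 to 1190 without T library 1 or 2. Those read in T alone numbered 19 to 94 without any 1 of the T libraries and 274 and 293 without B library 1 or 4. Fewer libraries are then left to meet the rule. The patch medians were 1.01 and −1.22 for regions read in 4 against 0 libraries, and 0.91 and −1.16 with library size alone. Without T libraries 3 and 4 the medians were 0.69 and −0.68, but the rule changed as well. It then asked for 3 or 4 B libraries and neither T library, or for both T libraries and no B library. DESeq2 called H2-Aa and Zbtb7b as well (adjusted p = 0.0470 and 0.00991). The cause of these shifts was not tested. With a median of 22 to 87 reads in a region that was read and most regions unread in a library, a count of 0 does not show a closed region.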
